A study of Mus musculus with 6 samples.

Results

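Cytochrome P450 genes of families 1 to 3 were examined in whole mouse liver after deletion of the kinase TAK1 in endothelial cells. The genes were taken by name, as every row of the deposited expression table whose symbol starts with Cyp1, Cyp2 or Cyp3 followed by 1 subfamily letter and a digit. This gave 62 genes of 24318 rows, with 3 in family 1, 50 in family 2 and 9 in family 3. All 6 libraries were from livers of C57BL/6 mice of genotype VEcadCreERT2/TAK1flox/flox, which carry loxP-flanked TAK1 (Map3k7) alleles and a tamoxifen-inducible Cre driven by the VE-cadherin (Cdh5) promoter of endothelium. The knockout group was 3 liver libraries from mice given tamoxifen. The control group was 3 liver libraries from mice given no treatment, so tamoxifen and the deletion cannot be told apart. Age, sex, tamoxifen dose and the interval to sampling are not in the labels.

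P450 enzymes of these families are membrane-bound heme proteins, mainly of the hepatocyte endoplasmic reticulum, which oxidise drugs, pollutants, steroids, bile acids and fatty acids. They take electrons from NADPH through P450 reductase and cytochrome b5. Nuclear receptors and the aryl hydrocarbon receptor induce many of them, growth hormone sets sex-biased levels of others in the mouse, and most are higher in hepatocytes around the central vein than around the portal tract.

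The values are as deposited, in FPKM (sequenced fragments divided by a transcript's length and a library's mapped fragments), and read depth is unknown. Each gene was tested on log2(FPKM + 0.5), which understates the change of low genes. It was called at a limma adjusted p under 0.05 over the 11842 genes averaging 0.5 FPKM or more. Values are given in the order of libraries 1, 2 and 3, as mean ± SD (n = 3), and as log2 fold change of knockout against control ± standard error. The replicates are named only as triplicates, so p-values reflect only how far these samples spread, which may be technical. Map3k7 measured 8.50, 9.02 and 9.14 FPKM in the controls against 9.28, 9.31 and 7.35 FPKM in the knockouts (log2 fold change -0.04 ± 0.16, limma adjusted p = 0.868). Liver cells other than endothelium, in which this Cre is not driven, also express Map3k7, so its level in whole liver does not check the labels. The Y-linked genes Ddx3y, Uty, Kdm5d and Eif2s3y were listed at 0 in all 6 libraries, and Xist measured 3.26 to 16.1 FPKM. An exact 0 in such a table can be a failed estimate: Alb, which encodes albumin, had 0 in all 3 controls and was left out.

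Some neighbouring members are close copies of each other, which limits how far their values can be separated. The coding sequences of Cyp3a41a and Cyp3a41b were 99.87% identical, and 98.6% and 93.5% of the 50-base stretches of their transcripts occurred in another member. Those of Cyp2a4 and Cyp2a5 were 98.45% identical, with 36.1% and 31.0% of stretches shared. Cyp2c40, Cyp2c67, Cyp2c68 and Cyp2c69 shared 43.3% to 72.1%. The sources used here do not say how fragments were assigned among such copies, so the split of a level between them is uncertain. Cyp2e1, Cyp2f2, Cyp2c70, Cyp2r1, Cyp2g1 and Cyp3a13 shared no such stretch with another member.

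The members also share promoter sequence, and the sequences of 4 are printed because they belong to the 2 steepest falls among abundant members, to the most abundant family 3 gene and to the only member that rose. Each is the 250 bases before the RefSeq start (GRCm38.p6, not the authors' mm9), read 5′ to 3′. Over all 55 member windows, tested or not, the 30 bases after the start lay in a GENCODE transcript of the gene for 41. The start is less certain for the others. Capitals mark the HNF4 core CAAAGTCC and, in the Cyp2a pair, also the HNF1 half-site GTTAAT. HNF4 and HNF1 are transcription factors of hepatocytes.

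Cyp2a4 (chr7:26306942-26307191, plus strand): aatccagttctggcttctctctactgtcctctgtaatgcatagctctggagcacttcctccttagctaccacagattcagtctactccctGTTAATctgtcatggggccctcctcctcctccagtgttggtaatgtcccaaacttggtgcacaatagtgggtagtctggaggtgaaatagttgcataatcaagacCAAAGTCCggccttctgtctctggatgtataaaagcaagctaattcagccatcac

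Cyp2a5 (chr7:26835089-26835338, plus strand): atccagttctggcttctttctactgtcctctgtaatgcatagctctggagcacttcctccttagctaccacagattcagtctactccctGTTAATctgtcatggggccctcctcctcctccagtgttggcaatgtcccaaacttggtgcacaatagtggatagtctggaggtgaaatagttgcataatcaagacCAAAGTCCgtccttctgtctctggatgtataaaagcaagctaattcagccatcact

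Cyp3a11 (chr5:145879855-145880104, minus strand): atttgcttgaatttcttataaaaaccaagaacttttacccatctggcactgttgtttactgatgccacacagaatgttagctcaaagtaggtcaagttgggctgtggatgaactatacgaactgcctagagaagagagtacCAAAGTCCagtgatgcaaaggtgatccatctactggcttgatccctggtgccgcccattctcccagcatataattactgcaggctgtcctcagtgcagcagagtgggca

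Cyp2c70 (chr19:40187287-40187536, minus strand): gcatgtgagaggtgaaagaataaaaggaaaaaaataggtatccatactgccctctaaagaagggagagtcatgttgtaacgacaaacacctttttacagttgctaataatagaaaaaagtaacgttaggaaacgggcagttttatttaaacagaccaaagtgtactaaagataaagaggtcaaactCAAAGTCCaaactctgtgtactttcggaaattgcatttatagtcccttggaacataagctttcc

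On either strand, the HNF4 core lay in 11 of the 38 windows of 36 tested members (28.9%) and in 1.2% of all 32851 windows of the same length. Those 11 windows belonged to 7 members that fell (Cyp2a4, Cyp2a5, Cyp2c40, Cyp2c68, Cyp3a11, Cyp3a41a and Cyp3a41b), to Cyp2c70, which rose, and to Cyp2c67, Cyp2c69 and Cyp3a16, which were not called. They are not independent matches, since many of the windows are close copies: Cyp2a4 and Cyp2a5 were 97.6% identical, Cyp3a41a and Cyp3a41b 99.6%, Cyp3a16 and Cyp3a41b 91.3%, Cyp2c68 and Cyp2c69 91.3%, and Cyp2c40 and Cyp2c69 77.5%. The Cyp2c70 window was at most 48.9% identical to another of them. The HNF1 half-site lay in 6 of 38 windows (15.8%, against 6.43% of all windows). These were the windows of Cyp2a4, Cyp2a5, Cyp2c40, Cyp2c68, Cyp2c69 and Cyp2d26, all but the last among the close copies above. The aryl hydrocarbon receptor core GCGTG lay in 2 windows (5.26%, against 28.2%). The base composition of member windows and of all windows was not compared. The D-box TTANGTAA of the PAR bZIP clock factors lay in 1 (2.63%, against 2.06%), that of Cyp2c38. No tested member's window held the STAT5 site TTCNNNGAA, against 7.02% of all windows. For this and the other motifs, the lack of a match says only that these exact letters are not in that window.

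Most measured members fell in knockout livers. Of the 62 genes, 13 were listed at 0 in every library and 7 had a mean of 0.256 to 0.470 FPKM, too low to test. Of the 42 tested, 30 fell, 1 rose and 11 were not called, where 27.0% of all genes tested were called in either direction, 13% lower and 14.1% higher. The median log2 fold change was -1.18 over the 42 members and -0.0007 over all genes tested. Every knockout library lay below every control library for 32 of the 42, against 21.1% of all genes tested. Of the members that fell, 24 fell by at least 1 and 7 by at least 2 log2 units. With each library rescaled to the same total, the median over all genes moved to -0.11 and the share of calls that were higher from 52.1% to 39.5%, and 33 members were called lower.

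Summed over the 62 genes, the level was 9981, 9397 and 8499 FPKM in the controls against 4469, 4427 and 4026 FPKM in the knockouts, so the knockout mean was 46.4% of the control mean. Cyp2e1 and Cyp3a11 together made up 45.7% to 49.8% of that sum in control and 40.8% to 44.2% in knockout libraries. Subfamilies kept unequal parts of their control level: 22.3% for Cyp2f, 24.8% for Cyp1a, 31.6% for Cyp2b, 33.6% for Cyp2a, 39.1% for Cyp3a, 42.1% for Cyp2e, 45.0% for Cyp2j, 66.5% for Cyp2c and 69.8% for Cyp2d. The share of Cyp2c in the sum was 15.9% to 19.8% in control and 25.3% to 25.9% in knockout libraries. Cyp2c includes Cyp2c70, which rose from a mean of 301 to 468 FPKM while the Cyp2c sum fell from 1661 to 1103.5 FPKM. Of 13 tested Cyp2c members 9 fell, with a median log2 fold change of -1.11 over the 13. These differences between subfamilies were not tested.

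**Figure D1:**
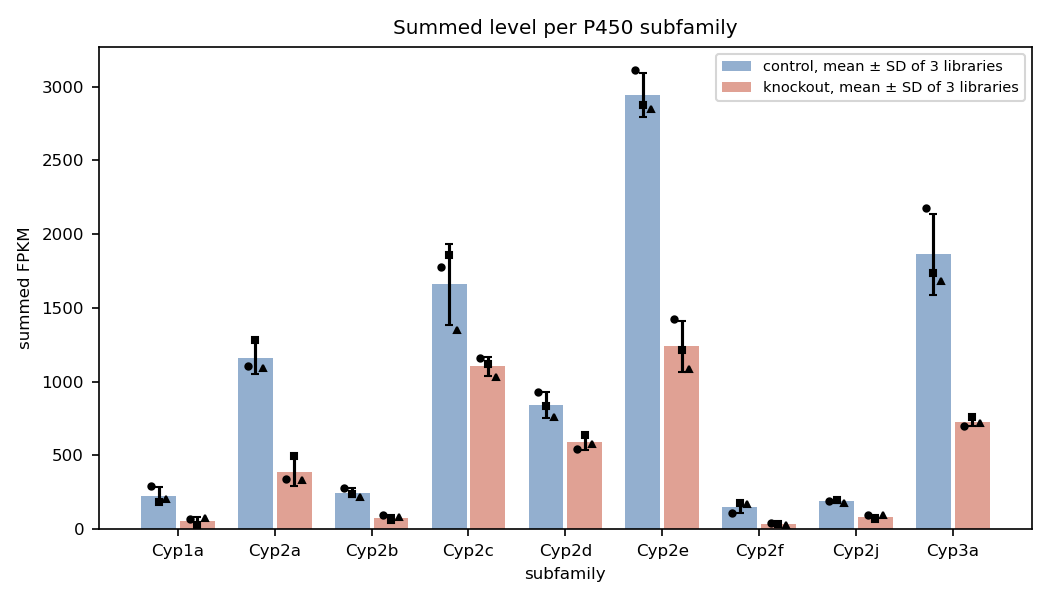
Summed FPKM of 9 subfamilies (y axis, linear) in control (blue) and knockout (red) livers; bars are means of 3 libraries with SD, and black circles, squares and triangles are libraries 1, 2 and 3. In each of the 9, all knockout sums lie below all control sums.

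Markers of other cells moved with these falls. In whole liver, fewer hepatocytes and less RNA per hepatocyte cannot be told apart. Of 11 tested hepatocyte markers, 3 rose and 3 fell, with a median log2 fold change of -0.14, and their summed level without Alb was 61722 to 69819 FPKM in control and 77424 to 90090 FPKM in knockout libraries. The transport protein genes Apoa2 and Ttr were among those that fell. Trf and Hpx, among those that rose, went from means of 11753 to 26839 FPKM and of 9418 to 24399 FPKM. The log2 fold change was negative for 7 of the 11, so the higher sum does not describe most of these markers. All 10 neutrophil markers rose, from a sum of 36.6 to 73.0 FPKM in control to 1722 to 1807 FPKM in knockout libraries, with Ngp, Camp and Ltf at 0 in some control libraries. Of 10 monocyte and macrophage markers 8 rose (sum 330.1 to 806 against 1071 to 1147 FPKM; Ly6c2 and Chil3 at 0 in control 2). Of 10 acute phase genes 8 rose (sum 11753 to 21558 against 50186 to 109662 FPKM). Of 8 endothelial markers 5 fell (sum 112 to 169 against 37.3 to 43.2 FPKM). Clec4g, at 0 in knockouts 2 and 3, went from a mean of 54.9 to 0.127 FPKM. Pecam1, Cdh5 and Stab2 were not called (log2 fold change -0.21 ± 0.20, 0.28 ± 0.26 and 0.32 ± 0.26). Of 4 cholangiocyte markers 1 rose and 1 fell (sum 4.95 to 5.74 against 2.91 to 6.98 FPKM; Krt19 at 0 in knockout 3). The part of these cells in the P450 results was not tested. Beside the counts of markers, 13% of all genes tested were lower and 14.1% higher.

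**Figure D2:**
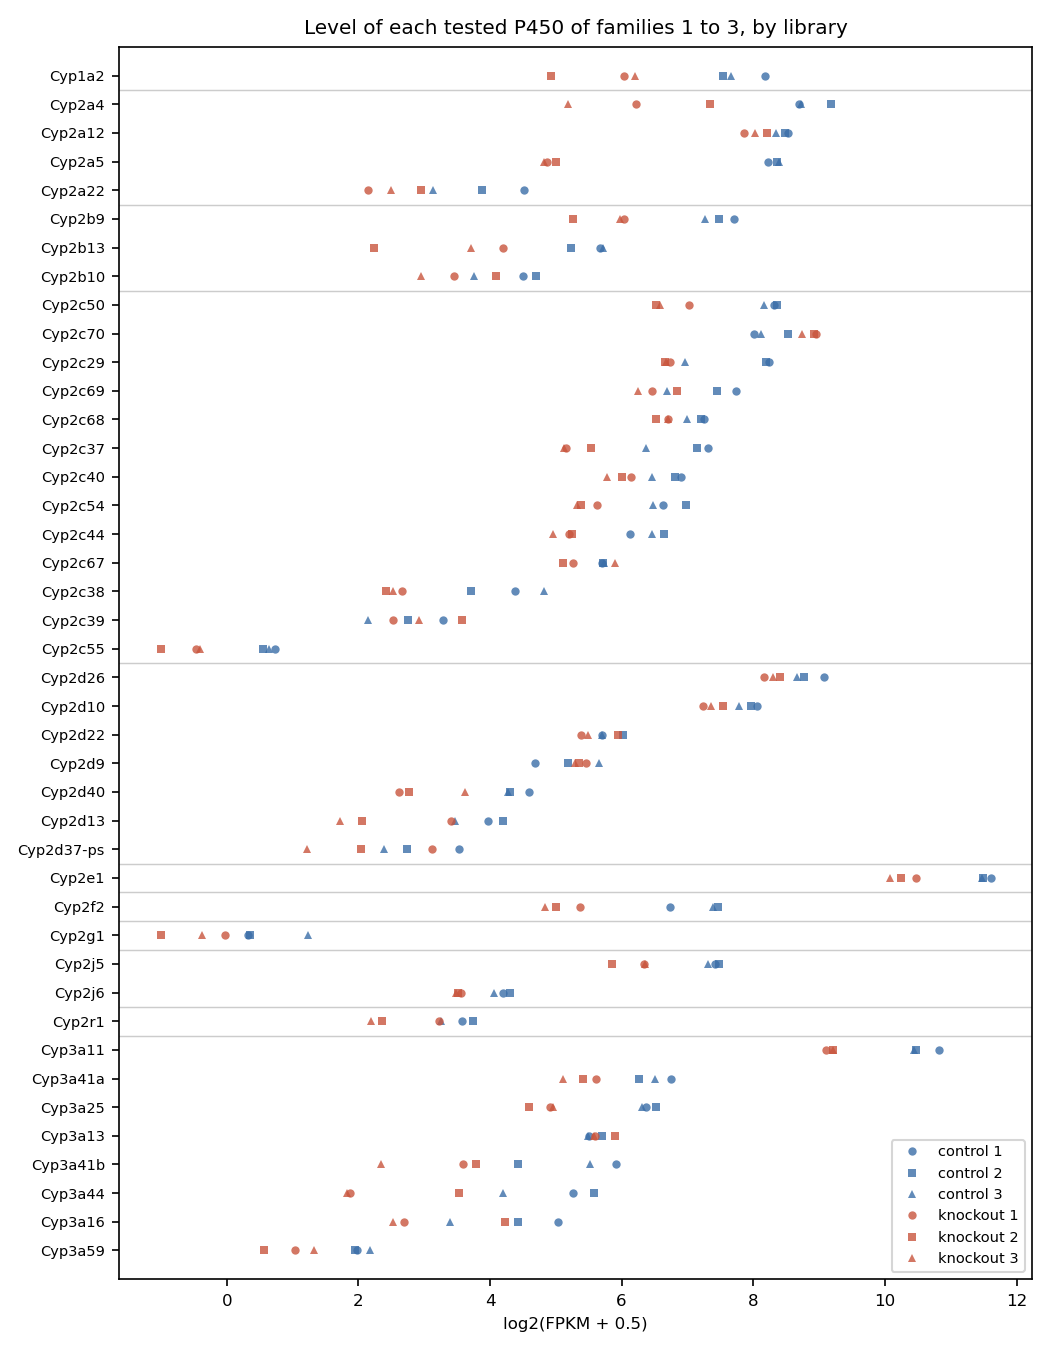
Level of each of the 42 tested members on the log2(FPKM + 0.5) scale (x axis) in the 3 control (blue) and 3 knockout (red) libraries, grouped by subfamily and ordered by control mean. For 32 members the red symbols all lie to the left of the blue ones, for Cyp2c70 to the right, and for 9 they overlap.

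In family 1, Cyp1a2, which oxidises caffeine and aromatic amines and is a pericentral target of the aryl hydrocarbon receptor, measured 290.4, 186 and 201 FPKM in the controls against 65.2, 29.8 and 73.6 FPKM in the knockouts. All knockout libraries were lower, with knockout 2 the lowest. It fell from 226 ± 56.4 to 56.2 ± 23.2 FPKM (log2 fold change -2.07 ± 0.32, limma adjusted p = 0.00177). Cyp1a2 (ENSMUSG00000032310, chromosome 9, 57676937 to 57683703 in GRCm38, as are all places below) lies beside Cyp1a1. Cyp1a1, the more widely inducible of that pair, measured 1.89, 0 and 0.767 FPKM in the controls against 0.164, 0 and 0 FPKM in the knockouts and was too low to test, as was Cyp1b1 (at most 0.547 FPKM), a mainly extrahepatic enzyme.

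In subfamily 2a, 3 of 4 members fell, and the 2 close copies fell most. Cyp2a5, which hydroxylates coumarin and nicotine, measured 300.0, 329 and 336 FPKM in the controls against 28.8, 31.5 and 27.8 FPKM in the knockouts (ENSMUSG00000005547, chromosome 7, 26835305 to 26843548). The groups lay far apart and were each tight, and knockout livers held 9.13% of the control mean, the lowest share among called members (log2 fold change -3.43 ± 0.13, limma adjusted p = 1.35e-06). Cyp2a4, a testosterone hydroxylase that is higher in female liver, measured 415, 582 and 422 FPKM in the controls against 74.3, 162 and 35.8 FPKM in the knockouts (ENSMUSG00000074254, chromosome 7, 26307169 to 26315088). It fell in every knockout library but unevenly, from 473 ± 94.6 to 90.8 ± 64.8 FPKM (log2 fold change -2.62 ± 0.44, limma adjusted p = 0.00263), and the knockout mean was 55.1 FPKM without knockout 2. Because their reads can be shared, the sum of both was taken as well, and it was 715, 912 and 758 FPKM in the controls against 103, 194 and 63.6 FPKM in the knockouts, or 15.1% of the control mean. Cyp2a4 went from the third most abundant tested member in control to rank 11 in knockout livers, and Cyp2a5 from rank 6 to rank 25.

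Cyp2a12, which hydroxylates steroids and bile acids, measured 368, 356 and 324 FPKM in the controls against 232, 297 and 261 FPKM in the knockouts. Its groups did not overlap, but its log2 fold change of -0.41 ± 0.14 was not called (limma adjusted p = 0.0587); it was called on leaving out knockout 2 or with libraries rescaled to the same total (log2 fold change -0.53 to -0.50). Cyp2a22, 96.95% identical to it in coding sequence, measured 22.3, 14.2 and 8.32 FPKM in the controls against 3.93, 7.22 and 5.11 FPKM in the knockouts and fell (log2 fold change -1.32 ± 0.34, limma adjusted p = 0.0181), a call lost on leaving out control 1, control 2, knockout 1 or knockout 3 (log2 fold change -1.30 to -0.98).

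Of the 3 tested members of subfamily 2b, both female-biased genes fell. Cyp2b9 measured 209, 178 and 154 FPKM in the controls against 65.1, 37.7 and 62.4 FPKM in the knockouts, with all knockout libraries lower (log2 fold change -1.73 ± 0.22, limma adjusted p = 0.000675). Cyp2b13 measured 50.4, 37.2 and 52.2 FPKM in the controls against 17.8, 4.22 and 12.6 FPKM in the knockouts, lowest in knockout 2 (log2 fold change -2.16 ± 0.42, limma adjusted p = 0.0051). Cyp2b10, the classic phenobarbital-inducible target of the receptor CAR, measured 22.2, 25.6 and 12.98 FPKM in the controls against 10.4, 16.6 and 7.23 FPKM in the knockouts. Its groups overlapped and it was not called (log2 fold change -0.82 ± 0.32, limma adjusted p = 0.0857), and it was called lower on leaving out control 3 or knockout 2 or with libraries rescaled to the same total (log2 fold change -1.12 to -0.94). Cyp2b19 and Cyp2b23 were listed at 0 throughout.

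Subfamily 2c, many of whose enzymes oxidise arachidonic acid, held the largest number of tested members: 9 of 13 fell, 1 rose and 3 were not called. Cyp2c50 measured 319, 329 and 285 FPKM in the controls against 129, 91.3 and 95.6 FPKM in the knockouts (log2 fold change -1.57 ± 0.16, limma adjusted p = 0.000259). Its neighbours Cyp2c37 and Cyp2c54, 96.12% and 95.24% identical to it, fell too. Cyp2c37 measured 159, 141 and 82.6 FPKM in the controls against 35.2, 45.7 and 34.6 FPKM in the knockouts, with control 3 the lowest control (log2 fold change -1.67 ± 0.24, limma adjusted p = 0.00122). Cyp2c54 measured 98.4, 126 and 88.9 FPKM in the controls against 48.7, 41.3 and 39.4 FPKM in the knockouts (log2 fold change -1.25 ± 0.16, limma adjusted p = 0.000764). For these neighbours no control library overlapped a knockout library.

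Cyp2c29, a CAR-inducible epoxygenase, measured 303, 293 and 124 FPKM in the controls against 106, 101 and 102 FPKM in the knockouts. The knockout libraries were tight while control 3 stood close to them. Its log2 fold change was -1.11 ± 0.30 (limma adjusted p = 0.023), and the call was lost on leaving out control 1, control 2, knockout 1, knockout 2 or knockout 3 or with no mean-variance trend (log2 fold change -1.13 to -0.89). Control 3 was the lowest control library for 27 of the 42 tested members, and the highest control library for 9 of 10 monocyte and macrophage markers (sum 806 FPKM, against 330.1 and 332 FPKM in controls 1 and 2). For neutrophil markers it was highest for 4 of 10 (sum 73.0 FPKM, against 36.6 and 50.1 FPKM). For endothelial markers it was highest for 7 of 8 (sum 169 FPKM, against 112 and 125 FPKM). Its hepatocyte marker sum without Alb was the lowest of the controls (61722 FPKM, against 69819 and 67984 FPKM), though it was highest for 3 of those 11 markers. The total FPKM of control 3 without Alb was also the lowest of the controls (440764, against 479240 and 489862). As a share of that total, the members made up 2.08%, 1.92% and 1.93% in controls 1, 2 and 3, so control 3 was not the lowest on that scale. The part of this in the P450 levels was not tested, and without control 3 the members called lower numbered 33.

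Cyp2c44, an epoxygenase listed by RefSeq as Cyp2c23, measured 69.3, 99.4 and 88.0 FPKM in the controls against 36.1, 37.6 and 30.6 FPKM in the knockouts and fell (log2 fold change -1.28 ± 0.17, limma adjusted p = 0.000759). Cyp2c38 measured 20.3, 12.6 and 27.8 FPKM in the controls against 5.82, 4.83 and 5.25 FPKM in the knockouts and fell (log2 fold change -1.77 ± 0.26, limma adjusted p = 0.00142). Its close relative Cyp2c39, at 94.22% identity, overlapped between groups, with 9.24, 6.22 and 3.92 FPKM in the controls against 5.27, 11.5 and 7.05 FPKM in the knockouts (log2 fold change 0.28 ± 0.33, limma adjusted p = 0.575). Its sign changed on leaving out control 3 or knockout 2. The difference between this pair was not tested.

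For the 4 mutually similar genes Cyp2c40, Cyp2c67, Cyp2c68 and Cyp2c69 the log2 fold change was between -1 and 0. Of these, 2 fell and 2 were not called. Cyp2c40, an arachidonic acid hydroxylase, measured 119.6, 112 and 87.3 FPKM in the controls against 70.1, 63.5 and 54.1 FPKM in the knockouts and fell (log2 fold change -0.75 ± 0.16, limma adjusted p = 0.00871). Cyp2c68 measured 152, 147 and 126 FPKM in the controls against 104, 91.5 and 103 FPKM in the knockouts (log2 fold change -0.50 ± 0.13, limma adjusted p = 0.021), a call lost on leaving out control 1, control 2 or knockout 2 or with no mean-variance trend (log2 fold change -0.50 to -0.45). Neither of the remaining pair was called. Cyp2c69 measured 213, 174 and 103 FPKM in the controls against 87.2, 114 and 75.7 FPKM in the knockouts (log2 fold change -0.78 ± 0.26, limma adjusted p = 0.0538) and was called on leaving out control 3 or knockout 2 or with libraries rescaled to the same total (log2 fold change -1.08 to -0.90). Cyp2c67 measured 51.3, 51.8 and 52.5 FPKM in the controls against 37.9, 34.0 and 59.0 FPKM in the knockouts (log2 fold change -0.29 ± 0.20, limma adjusted p = 0.318) and was called on leaving out knockout 3 (log2 fold change -0.52). Summed over the 4, the level was 536, 484 and 369 FPKM in the controls against 299, 303 and 292 FPKM in the knockouts, or 64.4% of control. The split between copies matters less for such a sum, but still enters through transcript length. Cyp2c55, a mainly intestinal enzyme, fell from about 1 FPKM (0.962 to 1.16) to 0 to 0.251 FPKM (log2 fold change -1.27 ± 0.31, limma adjusted p = 0.0155), a call lost on leaving out control 1 (log2 fold change -1.23). At levels this low the value depends on the pseudocount, and was -2.37 with a pseudocount of 0.1.

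Cyp2c70, the enzyme that makes muricholic acids and so sets the rodent bile acid pool, was the only member that rose. It measured 258, 369 and 277 FPKM in the controls against 493, 484 and 426 FPKM in the knockouts (ENSMUSG00000060613, chromosome 19, 40153353 to 40187333), with every knockout library above every control library. The log2 fold change was 0.65 ± 0.17 (limma adjusted p = 0.0182), and the call was lost on leaving out control 1 or knockout 1 (log2 fold change 0.55 to 0.61). In knockout livers it was the third most abundant tested member, from rank 8 in control. It lies at the end of the Cyp2c cluster of chromosome 19 and had 69.82% coding identity to its nearest member, the lowest among the protein-coding genes of that cluster in the table.

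In subfamily 2d, 4 of 7 tested members fell, and the abundant ones by less than 1 log2 unit. Cyp2d26 measured 539, 437 and 406 FPKM in the controls against 285, 339 and 314 FPKM in the knockouts (log2 fold change -0.55 ± 0.15, limma adjusted p = 0.0262), and its call was lost on leaving out control 1, control 2, knockout 1 or knockout 3 or with no mean-variance trend (log2 fold change -0.58 to -0.43). Cyp2d10 measured 266, 251 and 219.9 FPKM in the controls against 151, 186 and 163 FPKM in the knockouts (log2 fold change -0.56 ± 0.14, limma adjusted p = 0.0175), a call lost on leaving out control 1, control 2 or knockout 1 (log2 fold change -0.54 to -0.49). Both had all knockout libraries below all control libraries. The lower-level genes fell further: Cyp2d40 measured 23.6, 19.3 and 18.9 FPKM in the controls against 5.67, 6.30 and 11.8 FPKM in the knockouts (log2 fold change -1.39 ± 0.26, limma adjusted p = 0.00403). Cyp2d13, a transcribed pseudogene in RefSeq, measured 15.1, 17.8 and 10.6 FPKM in the controls against 10.1, 3.66 and 2.79 FPKM in the knockouts (log2 fold change -1.48 ± 0.40, limma adjusted p = 0.0222); its knockout mean was 3.23 FPKM without knockout 1, and the call was lost on leaving out control 1, control 2, knockout 2 or knockout 3 (log2 fold change -1.43 to -1.14).

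Cyp2d22 measured 51.5, 64.6 and 51.3 FPKM in the controls against 41.3, 60.9 and 44.5 FPKM in the knockouts, with overlapping groups (log2 fold change -0.20 ± 0.18, limma adjusted p = 0.441). Cyp2d9, the testosterone hydroxylase known as male-biased in mouse liver, measured 25.3, 35.8 and 49.7 FPKM in the controls against 43.7, 40.4 and 38.6 FPKM in the knockouts and also overlapped (log2 fold change 0.20 ± 0.22, limma adjusted p = 0.551), with the opposite sign on leaving out control 1. The pseudogene Cyp2d37-ps ranged from 4.73 to 11 FPKM in control and from 1.84 to 8.20 FPKM in knockout libraries and was not called.

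Cyp2e1, which oxidises ethanol and paracetamol in pericentral hepatocytes, was the most abundant member in every library. It measured 3113, 2874 and 2845 FPKM in the controls against 1424, 1214 and 1083 FPKM in the knockouts (ENSMUSG00000025479, chromosome 7, 140763739 to 140774987), and all knockout libraries were lower. The fall was from 2944 ± 147 to 1240.2 ± 172 FPKM, to 42.1% of control (log2 fold change -1.25 ± 0.17, limma adjusted p = 0.000852). Cyp2f2, the naphthalene-oxidising enzyme that marks periportal hepatocytes, measured 106, 177 and 167 FPKM in the controls against 40.9, 31.6 and 28.0 FPKM in the knockouts, with knockout livers at 22.3% of control (log2 fold change -2.13 ± 0.22, limma adjusted p = 0.000259). Of 8 members listed as pericentral, Cyp2e1 among them, all 8 fell, with a median log2 fold change of -1.49. Of all 42 tested members 30 fell (median -1.18), and 13% of all genes tested were lower. The pericentral list was chosen with earlier results of these data known. A difference of its members from the others was not tested, and periportal members other than Cyp2f2 were not listed. Cyp2g1, an olfactory enzyme, was at 0 to 1.85 FPKM and was not called.

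Both tested members of subfamily 2j fell. Cyp2j5, an epoxygenase of kidney and liver, measured 170.1, 179 and 158 FPKM in the controls against 80.7, 57.3 and 81.6 FPKM in the knockouts (log2 fold change -1.22 ± 0.16, limma adjusted p = 0.00087), and Cyp2j6 measured 17.9, 19.2 and 16.2 FPKM in the controls against 11.3, 10.9 and 10.7 FPKM in the knockouts (log2 fold change -0.67 ± 0.14, limma adjusted p = 0.00829). The other 5 were listed at 0 or, for Cyp2j9, at no more than 1.19 FPKM. Cyp2r1, which makes the circulating form of vitamin D, measured 11.4, 12.8 and 9.07 FPKM in the controls against 8.82, 4.63 and 4.07 FPKM in the knockouts and fell (log2 fold change -0.93 ± 0.27, limma adjusted p = 0.0322), a call lost on leaving out control 1, control 2, knockout 2 or knockout 3 or with no filter on low values or with no mean-variance trend (log2 fold change -0.93 to -0.73). Cyp2s1 and Cyp2u1 stayed under 1 FPKM, and Cyp2t4 and Cyp2w1 were listed at 0.

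In family 3, 6 of 8 tested members fell. Cyp3a11, the main drug-metabolising target of the receptor PXR in mouse liver, measured 1807, 1421 and 1388 FPKM in the controls against 551, 593 and 595 FPKM in the knockouts (ENSMUSG00000056035, chromosome 5, 145854426 to 145879964). It fell in every knockout library, from 1538 ± 233 to 579 ± 24.7 FPKM (log2 fold change -1.40 ± 0.16, limma adjusted p = 0.000398). Cyp3a25 measured 82.0, 91.5 and 79.0 FPKM in the controls against 29.5, 23.6 and 30.5 FPKM in the knockouts (log2 fold change -1.58 ± 0.15, limma adjusted p = 0.000181), and its copy Cyp3a59, 97.48% identical, fell from 3.35 to 4.04 FPKM in control to at most 2.0 FPKM in knockout libraries. Cyp3a13 overlapped between the groups, at 44.9, 51.6 and 44.3 FPKM in the controls against 48.0, 59.4 and 47.2 FPKM in the knockouts (log2 fold change 0.13 ± 0.14, limma adjusted p = 0.549). It lies apart from the others, at 137892932 to 137921619 on chromosome 5, whereas the remaining Cyp3a genes lie between 145345279 and 146113287.

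The female-biased members of family 3 fell or were not called. Cyp3a41a measured 107, 76.3 and 90.5 FPKM in the controls against 48.5, 42.1 and 34.1 FPKM in the knockouts and Cyp3a41b 60.0, 21.0 and 45.4 FPKM in the controls against 11.5, 13.3 and 4.59 FPKM in the knockouts, each without overlap (limma adjusted p = 0.00195 and 0.00802). Their sum, which depends less on the split between copies, was 167, 97.3 and 136 FPKM in the controls against 60.0, 55.4 and 38.7 FPKM in the knockouts, or 38.5% of control. Cyp3a44 measured 37.8, 47.6 and 17.8 FPKM in the controls against 3.16, 11.05 and 3.06 FPKM in the knockouts (log2 fold change -2.60 ± 0.48, limma adjusted p = 0.00406), with a knockout mean of 5.76 FPKM that was 3.11 FPKM without knockout 2. Cyp3a16, known as a fetal form, measured 32.4, 21.0 and 9.98 FPKM in the controls against 5.96, 18.2 and 5.28 FPKM in the knockouts and was not called (log2 fold change -1.14 ± 0.49, limma adjusted p = 0.119); it was called on leaving out control 3 or knockout 2 (log2 fold change -1.68 to -1.59). Over all subfamilies, 7 of 9 female-biased members fell (median log2 fold change -1.73). Of all 42 tested members 30 fell (median -1.18), and 13% of all genes tested were lower. The female-biased list was also chosen with earlier results of these data known, and a difference of its members from the others was not tested. Their summed level was 983 to 1248 FPKM in control and 288 to 467 FPKM in knockout libraries.

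**Figure D3:**
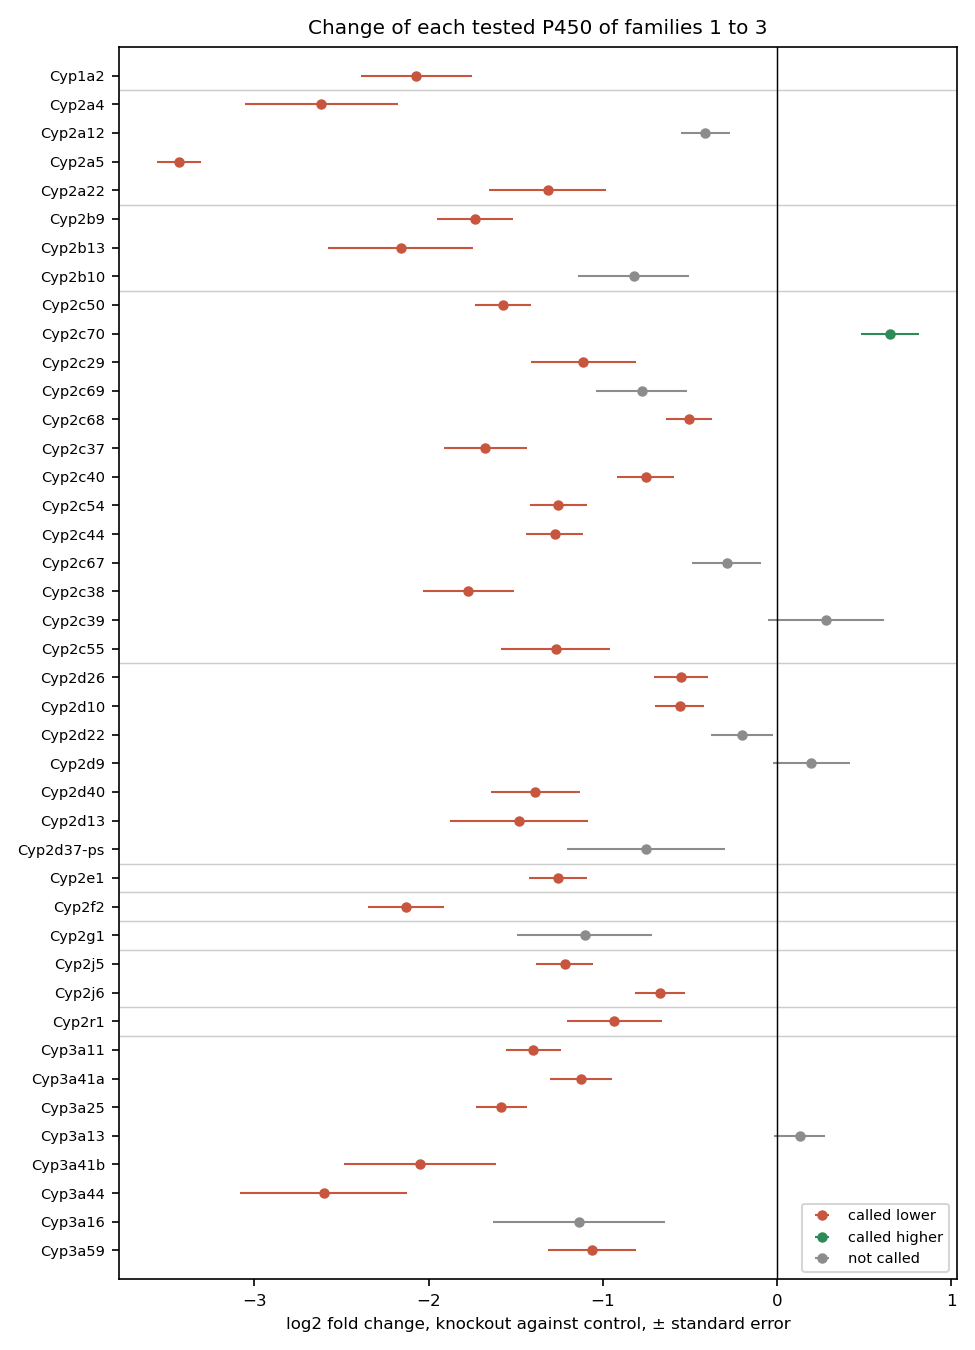
Log2 fold change of knockout against control (x axis, log2(FPKM + 0.5) scale) with its standard error for the 42 tested members, grouped by subfamily; red members were called lower, the green one higher and grey ones not called. The values run from -3.43 for Cyp2a5 to 0.65 for Cyp2c70.

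Genes of electron transfer and of heme binding, synthesis and breakdown mostly fell as well. Of 18 in that list, 11 fell, 3 rose and 4 were not called, where 13% of all genes tested were lower and 14.1% higher, with a median log2 fold change of -0.53. Cyb5b, a cytochrome b5 of the outer mitochondrial membrane, measured 110.1, 111 and 108 FPKM in the controls against 49.3, 22.9 and 47.8 FPKM in the knockouts (log2 fold change -1.52 ± 0.26, limma adjusted p = 0.00291). Pgrmc1, a heme-binding partner of P450s, measured 798, 809.7 and 738 FPKM in the controls against 330.2, 306 and 387 FPKM in the knockouts (log2 fold change -1.20 ± 0.14, limma adjusted p = 0.000533). Uros, of heme synthesis, measured 19.2, 14.5 and 13.5 FPKM in the controls against 5.95, 5.63 and 7.51 FPKM in the knockouts (log2 fold change -1.23 ± 0.19, limma adjusted p = 0.00186). The more abundant cytochrome b5 gene Cyb5a, the electron donor Por and the rate-limiting heme synthesis gene Alas1 were chosen after their values were seen. Cyb5a measured 2233, 1983 and 1627 FPKM in the controls against 1072, 917 and 1107 FPKM in the knockouts and fell by 0.91 log2 units (limma adjusted p = 0.00493). Por measured 192, 249 and 182 FPKM in the controls against 141, 267 and 134 FPKM in the knockouts, with knockout 2 above every control, and was not called (limma adjusted p = 0.492). Alas1 measured 145, 158 and 156 FPKM in the controls against 96.5, 129 and 99.4 FPKM in the knockouts and fell by 0.51 log2 units (limma adjusted p = 0.0311).

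Heme breakdown genes were the ones that rose. Hmox1, the inducible heme oxygenase of macrophages and hepatocytes, measured 37.5, 36.4 and 53.2 FPKM in the controls against 151, 162 and 217 FPKM in the knockouts (log2 fold change 2.05 ± 0.19, limma adjusted p = 0.000197). Hmox2 and the biliverdin reductase Blvra, chosen after their values were seen, had log2 fold changes of 0.54 ± 0.15 and 0.81 ± 0.21, while the second biliverdin reductase gene, Blvrb, fell (-0.96 ± 0.13). Without control 2 or control 3 the rises in the list numbered 1. The macrophage markers given above rose in the same libraries, and their part in Hmox1 was not tested.

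Among 23 tested regulators of P450 genes, 5 fell, 4 rose and 14 were not called (median log2 fold change -0.15), beside the same 13% lower and 14.1% higher over all genes tested. With libraries rescaled to the same total, 8 were called lower, and with any 1 library left out, 4 were. Dbp, a PAR bZIP clock output factor known in mice to drive Cyp2a4 and Cyp2a5, measured 17.6, 19.5 and 26.7 FPKM in the controls against 0.307, 1.30 and 0.674 FPKM in the knockouts (log2 fold change -4.16 ± 0.30, limma adjusted p = 5.17e-05). Tef, of the same class, measured 22.4, 27.9 and 26.1 FPKM in the controls against 9.20, 8.29 and 5.05 FPKM in the knockouts (log2 fold change -1.73 ± 0.22, limma adjusted p = 0.000713). Onecut1, a hepatocyte transcription factor, rose from 3.03 ± 0.604 to 7.28 ± 1.65 FPKM (limma adjusted p = 0.00639), and Arnt, the partner of the aryl hydrocarbon receptor, rose from 5.53 ± 0.689 to 11.4 ± 1.66 FPKM (limma adjusted p = 0.00398). The time of day of sampling is not in the labels.

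The main xenobiotic receptors were chosen after their values were seen. Nr1i2, which encodes PXR, measured 36.8, 37.3 and 37.3 FPKM in the controls against 35.9, 37.2 and 31.2 FPKM in the knockouts (log2 fold change -0.10 ± 0.13). Nr1i3, which encodes CAR, measured 25.9, 34.7 and 25.8 FPKM in the controls against 29.3, 19.4 and 17.8 FPKM in the knockouts (log2 fold change -0.39 ± 0.21), and Ahr measured 7.35, 5.90 and 9.53 FPKM in the controls against 7.48, 3.96 and 6.43 FPKM in the knockouts (log2 fold change -0.34 ± 0.26). None of these 3 was called (limma adjusted p = 0.629, 0.205 and 0.365), and all 3 overlapped between groups. Hnf4a and the growth hormone receptor gene Ghr, also chosen after their values were seen, fell by 0.43 and 0.87 log2 units (limma adjusted p = 0.0413 and 0.00152).

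**Figure D4:**
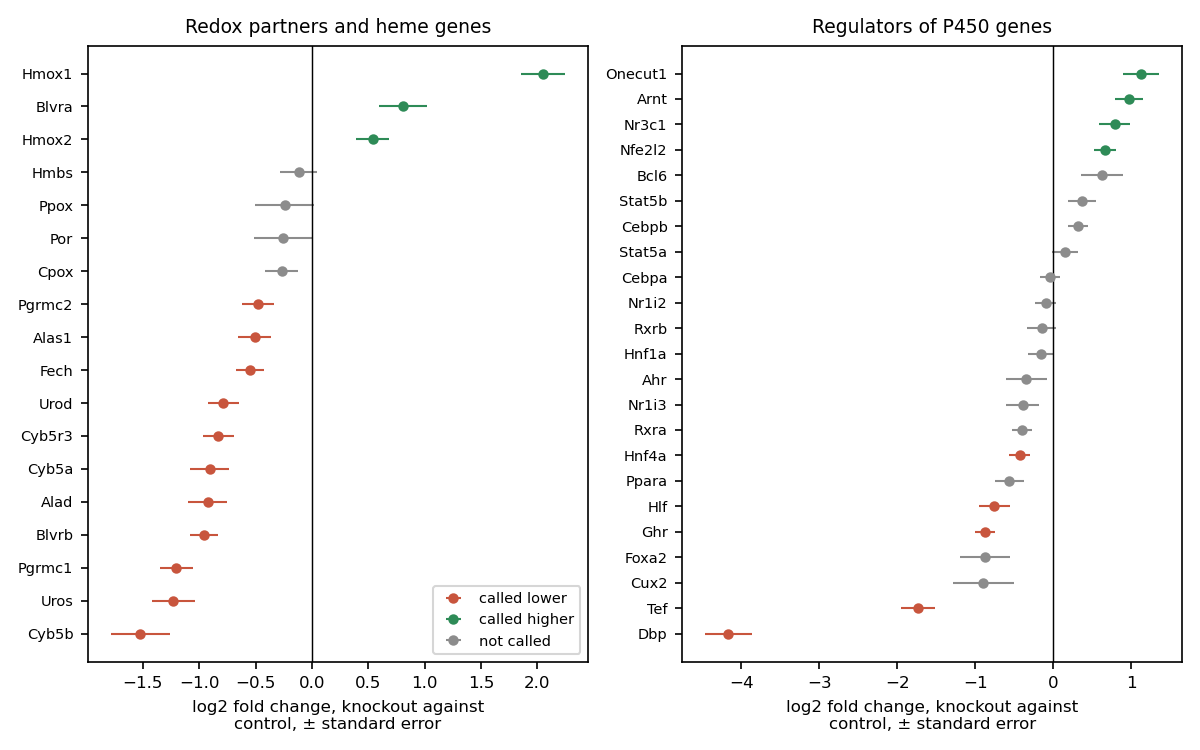
Log2 fold change of knockout against control (x axes, log2(FPKM + 0.5) scale) with its standard error for 18 genes of electron transfer and heme (left) and 23 regulators (right); red was called lower, green higher and grey not called. Hmox1 (2.05) and Dbp (-4.16) lie farthest from 0 in their panels.

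P450 genes of other families did not move as one. Of 20 tested, 8 fell, 3 rose and 9 were not called (13% lower and 14.1% higher over all genes tested), with a median log2 fold change of -0.44 beside -1.18 for families 1 to 3; the difference was not tested. Cyp7a1, the rate-limiting enzyme of bile acid synthesis, measured 12.1, 14.9 and 14.7 FPKM in the controls against 1.01, 1.23 and 1.14 FPKM in the knockouts (log2 fold change -3.14 ± 0.19, limma adjusted p = 1.97e-05), and Cyp4b1, a fatty acid hydroxylase, measured 3.71, 6.17 and 6.63 FPKM in the controls against 0.238, 1.06 and 0.806 FPKM in the knockouts (log2 fold change -2.35 ± 0.34, limma adjusted p = 0.00125). Cyp4f18, a leukotriene hydroxylase of neutrophils, measured 0.825, 0.571 and 0.508 FPKM in the controls against 9.77, 9.11 and 9.55 FPKM in the knockouts (log2 fold change 3.15 ± 0.21, limma adjusted p = 3.07e-05), in the libraries where neutrophil markers were high. Cyp17a1, a steroid hydroxylase, rose from 119.6 ± 64.6 to 427 ± 109 FPKM (limma adjusted p = 0.00405).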

How the data were processed

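Liver RNA in 3 control and 3 knockout libraries was sequenced as paired ends after TruSeq Sample Prep v2, per the labels' protocols. The submitters' processing notes name the build mm9 and, without roles, Cuffnorm 2.2.1, Cuffdiff 2.2.1, TopHat2 2.1.0 and Trimmomatic 0.33; they name no gene annotation. The table deposited by the authors holds FPKM per gene and library. It has 24318 rows, 8986 of them at 0 in every library. FPKM are not counts, so no count model was used; depth, and so counting precision, is unknown, and very abundant genes can shift all other values (the 10 most abundant genes other than Alb held 19.3% to 20.1% of summed FPKM in the controls against 25.7% to 32.7% in the knockouts).

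The 3 knockout and 3 control libraries were compared on log2(FPKM + 0.5) with limma 3.58.1 (R 4.3.3; two-sided moderated test, eBayes with trend), with Benjamini-Hochberg adjustment over all 11842 genes averaging 0.5 FPKM or more; Alb was left out. The code was tested on simulated data. The members and gene lists were chosen with earlier results of these data known. Members with a mean of at least 20 FPKM, or called and reaching 5 FPKM, are given library by library; of the other lists, up to 4 called genes with the largest change are named. There were 15 alternatives: other pseudocounts, filters, scalings and variance models, a block for replicate number, and leaving out each library. No nonzero value was identical for a gene in any pair of libraries. Places, coding sequences and 50-base stretches are from GENCODE vM21 (GRCm38, 60 of 62 members matched; the other 2 were placed through RefSeq), and promoters from RefSeq (GRCm38.p6, 52 members). Figures were drawn with matplotlib 3.10.9.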

Additional observations from a re-analysis of the deposited data

How the results depend on the processing

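Of 628 values of the 42 tested members under the 15 alternatives, 573 kept their direction and their side of the threshold, 36 lost a call, 16 gained one and 3 changed sign; 24 members kept theirs under every alternative run, as did the 12 other genes named by rule. The 30 members called lower numbered 22 to 33 with 1 library left out and 27 to 33 under the other alternatives, and the 1 called higher, Cyp2c70, 0 to 1 with 1 library left out. All genes called lower numbered 935 to 1484 (990 without control 1 and 935 without control 2), against 1534. Electron and heme genes called higher numbered 1 to 2 with 1 library left out, against 3. Regulators called lower numbered 8, against 5, with libraries rescaled to the same total. The cause was not tested, beyond the smaller number of samples when a library is left out. The sign changes were those of 2 genes that were not called: with 1 library left out, Cyp2c39 ranged from -0.0077 to 0.56 and Cyp2d9 from -0.044 to 0.43. With a pseudocount of 0.1 the log2 fold change of Cyp2c55 was -2.37 and that of Cyp2g1 -2.03.

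The labels number the replicates alike in both groups, but same-numbered libraries did not deviate together (correlations of -0.010, -0.00012 and 0.0015), so they share only a number. With the replicate block, 33 members were called lower and 1 higher: the call of Cyp2d26 was lost, and Cyp2b10, Cyp2c69, Cyp3a16 and Cyp2d37-ps were called (adjusted p = 0.0596, 0.0111, 0.0208, 0.0486 and 0.0430 in limma). At this unknown depth the size of a change in members near or under 1 FPKM is uncertain.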
